A study of Mus musculus with 35 samples.

Results

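A set of 1661 genomic regions was bound by KLF4 throughout the reprogramming of mouse fibroblasts and not in serum-grown embryonic stem cells (ESC). The regions were chosen by a rule on the deposited peak lists: all peaks of 8 KLF4 libraries on chromosomes 1 to 19 and X were merged where they shared at least 1 bp, and a merged region was kept when both libraries of day 3, day 6 and day 9 had a peak in it and neither ESC library did. Of 72197 merged regions, 1661 (2.30%) met the rule. Because KLF4 peaks at these stages selected the regions, their KLF4 levels are given below as a description only, and the tests use acetylation lists that the rule did not use.

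KLF4 is a zinc finger transcription factor that binds GC-rich and CACC-type sequences, and it is one of the factors used to turn somatic cells into induced pluripotent stem cells. Acetylation of histone H3 at lysine 27 (H3K27ac) marks active promoters and enhancers. In pluripotent cells KLF4 sits at enhancers together with other pluripotency factors, and when it is first expressed in fibroblasts it also occupies sites that it does not occupy in ESC.

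The series asked how KLF4 binding relates to enhancer organisation as pluripotency is acquired. The reprogramming cells were mouse embryonic fibroblasts (MEF) of strain C57BL/6 x 129 with the genotype OKSM Col1a1/M2rtTA ROSA26: a cassette for Pou5f1, Klf4, Sox2 and Myc in the Col1a1 locus that doxycycline switches on through the M2rtTA activator in the Rosa26 locus. MEF for H3K27ac were unsorted and, by their labels, grown without doxycycline, although the label of the MEF input library lists doxycycline and ascorbic acid; day 3, day 6 and day 9 cells were in ESC medium with doxycycline (1 µg/ml) and ascorbic acid (50 µg/ml), unsorted on day 3 and sorted for SSEA1 on days 6 and 9. Cells of days 3, 6 and 9 thus had the transgene on, and KLF4 from the cassette and from the endogenous gene is not told apart by the antibody. The ESC were 1 line, V6.5 of strain C57BL/6 x 129, grown unsorted on irradiated feeder cells with serum and LIF, and a further pair of KLF4 libraries came from V6.5 ESC grown with a MEK inhibitor (1 µM) and a GSK3 inhibitor (3 µM), called 2i. In such populations a peak that depends on more cells of a kind and a peak that depends on more signal per cell cannot be told apart.

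Most of the 1661 regions lay far from gene starts, and the sequence used here was limited to RefSeq promoter windows (build GRCm38.p6, 250 bases before to 50 after a start). Members overlapped 70 such windows of 58 genes. The first window below is shown because the highest ranked of all members covers it, and the other pair because, among the 5 best ranked members that hold a gene start, they carry one of the KLF motif spellings searched, GGGTGTGG or GGGCGTGG on either strand. Capitals mark that motif. Emp1 (chr6:135362681-135362980, plus strand) codes for an epithelial membrane protein; its window holds neither spelling.
Emp1: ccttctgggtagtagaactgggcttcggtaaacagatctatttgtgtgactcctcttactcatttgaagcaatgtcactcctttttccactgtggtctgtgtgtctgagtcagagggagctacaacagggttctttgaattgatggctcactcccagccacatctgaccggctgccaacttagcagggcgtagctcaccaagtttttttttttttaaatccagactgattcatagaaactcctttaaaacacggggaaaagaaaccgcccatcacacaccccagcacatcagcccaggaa
Fetub (chr16:22919972-22920271, plus strand): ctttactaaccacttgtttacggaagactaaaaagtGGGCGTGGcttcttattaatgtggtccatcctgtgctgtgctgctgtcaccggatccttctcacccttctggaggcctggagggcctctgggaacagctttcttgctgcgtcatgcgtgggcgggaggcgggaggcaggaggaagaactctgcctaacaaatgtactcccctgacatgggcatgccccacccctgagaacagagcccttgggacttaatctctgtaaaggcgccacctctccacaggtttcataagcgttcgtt
Gstt3 (chr10:75781365-75781664, minus strand): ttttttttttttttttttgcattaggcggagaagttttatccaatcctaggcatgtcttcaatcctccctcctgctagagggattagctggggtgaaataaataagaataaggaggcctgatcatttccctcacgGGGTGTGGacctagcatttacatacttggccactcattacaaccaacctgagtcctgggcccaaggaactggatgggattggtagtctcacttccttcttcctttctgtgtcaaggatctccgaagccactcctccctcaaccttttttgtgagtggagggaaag
Fetub codes for the secreted protease inhibitor fetuin-B, and GGGCGTGG began 214 bases before its start. Gstt3 codes for a glutathione S-transferase, and GGGTGTGG began 115 bases before the start shown.

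Of 1005 hairpins in the RefSeq microRNA table, 7 lay within 2.5 kb of a member. The best known is Mir21a, the gene of miR-21, a microRNA that many fibroblasts and tumours express highly; it was singled out after these values had been seen. The seed (bases 2 to 8) of its main strand is in capitals.
mmu-miR-21a-5p (chr11:86584120-86584141, minus strand): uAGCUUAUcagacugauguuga
The member near it (chr11:86586620-86587444) lay inside the Vmp1 gene, 2462 bp from the hairpin on its 5′ side. Its deposited KLF4 fold enrichment was 11.4 and 5.32 on day 3, 4.66 and 4.50 on day 6 and 4.75 and 3.97 on day 9. All 12 H3K27ac lists, MEF and ESC included, had a peak there.

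The data were 1 deposited peak list for each of 22 libraries, described by the submitters as biological replicates: H3K27ac from MEF (2), day 3 (3), day 6 (3), day 9 (2) and ESC (2), and KLF4 from day 3, day 6, day 9, ESC and 2i ESC (2 each). The lists give no read counts, so the depth behind them is unknown. H3K27ac lists held 17493 to 88347 peaks, fewest on day 6 and most in MEF, and the KLF4 lists 21129 to 34640. MEF and ESC acetylation came from batch DG-3458 and day 9 from batch EA-3702, as the labels name them; day 3 and day 6 were in both. The 2 serum ESC KLF4 lists, from batches EA-2697 and EA-2643, shared no batch with the other KLF4 lists and were of unequal length (21129 and 34640 peaks). Each of 10 fibroblast marker genes held an H3K27ac peak in both MEF lists, 8 or 9 of them did on day 3, 4 in every list of days 6 and 9, and 6 and 4 in ESC, which were grown on feeder cells; of 10 pluripotency marker genes, all did in ESC, 8 on day 9, 2 or 3 at days 3 and 6, and 4 in MEF. Peaks lay in or within 2.5 kb of all 5 endothelial markers in MEF (0 to 2 in each of the other lists) and of 3 of 5 macrophage markers in MEF (1 or 2 in the others); the part of such cells in the results was not tested.

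Most members held H3K27ac on day 9, and a minority did in MEF and in ESC. In MEF, labelled as without doxycycline, 448 and 450 of the 1661 regions (27% each) held an H3K27ac peak. Day 3 cells had one at 63.6% in the library of batch EA-3702, with 55.7% and 48.5% in the DG-3458 pair. Day 6 cells had one at 50.9% in the EA-3702 library, with 28.0% and 21.6% in the DG-3458 pair. The share reached 86.0% and 86.8% by day 9 and was 17.0% and 17.9% in ESC. The day 9 libraries were the highest and the ESC libraries the lowest of all 12. The day 6 libraries ranged from below to above the MEF libraries, so that the groups of day 6 and MEF overlapped. With every peak of a list moved by 1 Mb, 1.02% to 6.20% of the regions were hit.

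**Figure D1:**
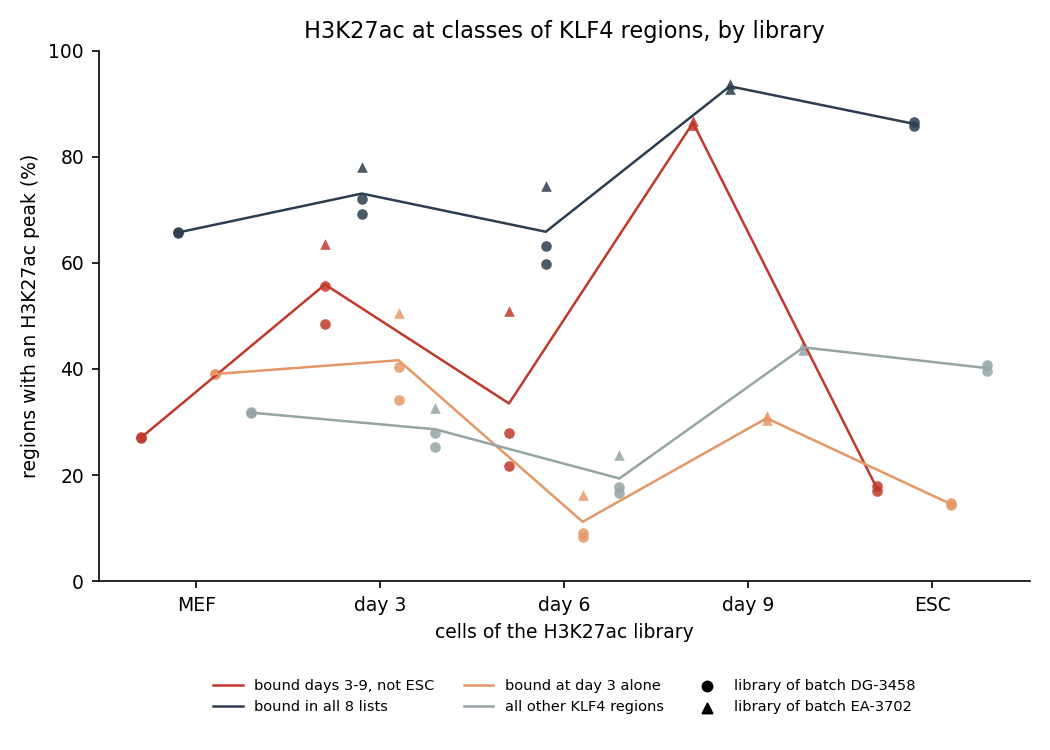
Share of regions with an H3K27ac peak (percent) in each of the 12 libraries, by stage and class of KLF4 region; points are libraries (circles batch DG-3458, triangles batch EA-3702) and lines join the stage means. The regions bound on days 3 to 9 and not in ESC go from 27% in MEF to 86.4% on day 9 and 17.5% in ESC, while the regions bound in all 8 lists stay at 86.2% in ESC.

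The length of a list affects how many regions it hits, so the members were set against other KLF4 regions in the same library. Among the 70536 other merged KLF4 regions H3K27ac covered a mean of 31.8% ± 0.0381 for MEF, 28.6% ± 3.75 for day 3, 19.4% ± 3.86 for day 6, 44.1% ± 0.639 for day 9 and 40.2% ± 0.884 for ESC (here and below ± is the SD over 3 libraries for days 3 and 6 and over 2 for the rest). Members minus others came to −4.77 and −4.70 percentage points for the MEF libraries and −23.7 and −21.6 for the ESC libraries. It was 23.2 to 30.9 points for day 3, 5.08 to 27.1 for day 6, and 42.3 and 42.4 for day 9. All 8 libraries of days 3 to 9 were above 0 and all 4 of MEF and ESC below it. For MEF this sign was reversed among regions over 2.5 kb from a gene start, as given below. The difference from ESC was 48.8 points (two-sided exact permutation test over 45 labelings of 8 and 2 libraries, p = 0.0222, adjusted p = 0.0296 over 4 tests), and the difference from MEF was 30.9 points (exact permutation test, p = 0.0222, adjusted p = 0.0296). Both p-values are the smallest this design can give. The difference from ESC was 30.5 points without the KLF4 ESC list of batch EA-2643 in the rule (exact permutation test, adjusted p = 0.0296). Neither difference stayed below an adjusted p of 0.05 when an overlap of 50% of the shorter interval was required (29.9 points from ESC and 17.9 from MEF, exact permutation tests, adjusted p = 0.0889 for both), when 200 bp about the midpoint stood for each region (37.7 and 20.7 points, adjusted p = 0.0889 and 0.119), or without the day 3 acetylation library of batch EA-3702 (48.1 and 30.2 points, adjusted p = 0.0556 and 0.0741). Without that library the unadjusted exact permutation p of the difference from ESC was 0.0278, the smallest possible. The difference from MEF also missed an adjusted p of 0.05 without the day 3 or the day 6 KLF4 list of batch EA-3702 in the rule (27.2 and 29.2 points, exact permutation tests, adjusted p = 0.0593 for both).

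Batch and stage were partly confounded. Within batch DG-3458, which holds MEF, day 3, day 6 and ESC, members minus other regions averaged −4.73 ± 0.0470 points for MEF, 25.5 ± 3.22 for day 3, 7.65 ± 3.63 for day 6 and −22.7 ± 1.48 for ESC (SD over 2 libraries). Within batch EA-3702 it was 30.9 for day 3 and 27.1 for day 6 (1 library each) and 42.4 ± 0.0852 for day 9. With labels permuted only within batches, the unadjusted p was 0.0667 for each difference (exact permutation test), the smallest that scheme allows, so it could not reach 0.05.

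A closer reference is the set of 5665 regions with a peak in all 8 KLF4 lists, which share binding on days 3 to 9 with the members and differ in ESC. H3K27ac covered 65.7% ± 0.225 of them for MEF, 73.1% ± 4.50 for day 3, 65.9% ± 7.72 for day 6, 93.3% ± 0.662 for day 9 and 86.2% ± 0.562 for ESC. Members minus these regions was −6.80 and −6.95 points for the day 9 libraries, and −67.9 and −69.6 for the ESC libraries. Days 3 to 9 differed from ESC by 48.5 points in this measure (two-sided exact permutation test, n = 8 and 2, p = 0.0222, adjusted p = 0.0296). It was 30.7 points with equally many top peaks from every list (exact permutation test, adjusted p = 0.0296). The call was lost with the 50% overlap (28.2 points, exact permutation test, adjusted p = 0.0889), with the midpoint window (38.4 points, adjusted p = 0.0889) and without the day 3 acetylation library of batch EA-3702 (47.6 points, adjusted p = 0.0556). In these settings the unadjusted exact permutation p stayed at the smallest possible value (0.0222, 0.0222 and 0.0278). The adjusted values rose with the p-values of other tests in the adjustment.

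The 2279 regions bound on day 3 alone share the early binding and had no peak in the other 6 lists of the rule. Their H3K27ac share was 39.0% ± 0.0310 for MEF, 41.6% ± 8.22 for day 3, 11.2% ± 4.40 for day 6, 30.7% ± 0.558 for day 9 and 14.5% ± 0.155 for ESC. Members exceeded them by 13.1 to 15.4 points in the day 3 libraries, 13.4 to 34.6 in those of day 6 and 55.7 in both of day 9. The day 6 and day 9 values together did not differ from day 3 beyond the spread between libraries (21.4 points, two-sided exact permutation test over 56 labelings of 5 and 3 libraries, p = 0.161, adjusted p = 0.161). Within batch DG-3458, which holds 2 libraries of day 3 and 2 of day 6, it was 1.28 points (exact permutation test within replicate number, p = 1). Taking equally many top peaks from every list, it was 24.5 points (exact permutation test, adjusted p = 0.0357), and without the day 3 KLF4 library of batch EA-3702 in the rule it was 7.05 points (exact permutation test, adjusted p = 0.679).

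Members, like most merged KLF4 regions, were mostly distal, and the high day 9 and low ESC shares were also present among the distal ones. Of the 1597 members outside chromosome 18, 3.51% held the start of a protein-coding gene and 9.08% lay within 2.5 kb of one, and the median distance was 42.0 kb. Without the KLF4 ESC list of batch EA-2643 in the rule, 19.9% of the 3038 regions then chosen lay within 2.5 kb. Over all merged regions 10.96% held a start and 20.4% lay within 2.5 kb, at a median of 28.3 kb. Regions bound in all 8 lists held a start in 39.5% and were within 2.5 kb in 45.8%, at a median of 5.48 kb. Regions bound on day 3 alone resembled the members, with 2.14% holding a start and a median of 45.8 kb. The median width was 585 bp for members, 746 bp for regions bound in all 8 lists and 299 bp for all others. Starts were known for 81.8% of protein-coding genes, so distances are upper values for regions whose true nearest start is not in the table.

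**Figure D2:**
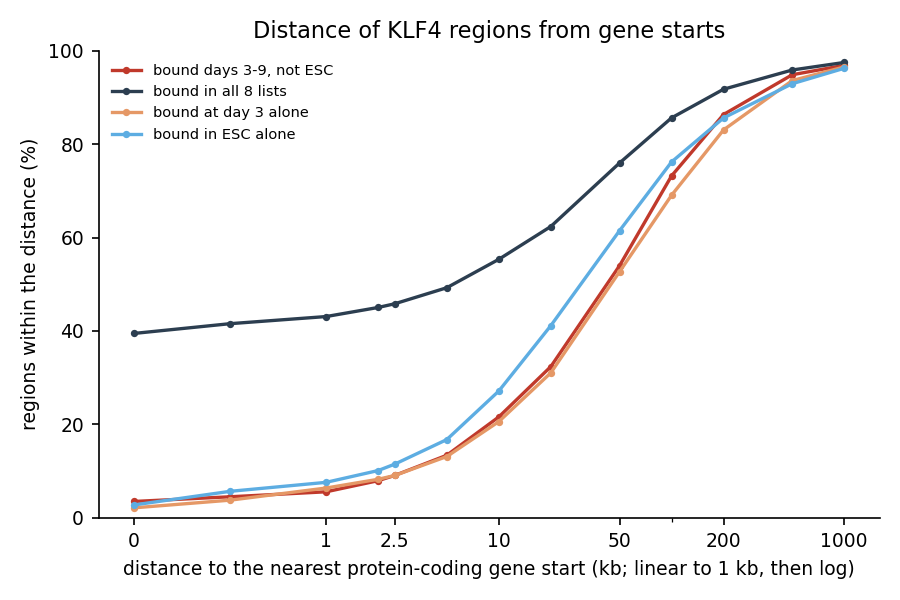
Cumulative share of regions (percent) within a given distance of the nearest protein-coding gene start (kb; linear to 1 kb, then log), outside chromosome 18, 1 line per class. The regions bound on days 3 to 9 and not in ESC run with the regions of day 3 alone, both below 10% at 2.5 kb, whereas 45.8% of the regions bound in all 8 lists are within 2.5 kb.

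Among the 1452 members over 2.5 kb from a start, H3K27ac covered 23.6% ± 0.0487 for MEF, 54.5% ± 7.75 for day 3, 30.5% ± 16.0 for day 6, 85.9% ± 0.536 for day 9 and 14.1% ± 0.633 for ESC. For the 2984 equally distal regions bound in all 8 lists the values were 43.3% ± 0.308 for MEF, 90.0% ± 0.900 for day 9 and 79.0% ± 0.924 for ESC. Over all 54168 distal regions outside the members they were 20.7% ± 0.0183 for MEF, 35.1% ± 0.623 for day 9 and 30.9% ± 0.942 for ESC. In both MEF libraries the distal members thus lay above the other distal regions, unlike the members as a whole. Restricted to such distal regions, a choice made after seeing the data, the difference of days 3 to 9 from ESC was 54.6 points against the regions bound in all lists and 50.4 points against all others (exact permutation test, adjusted p = 0.0296 for each). Of the 56 members that held a start, 86.6% ± 1.26 had H3K27ac in MEF and 75.9% ± 1.26 in ESC, and every one had it in both day 9 lists. High shares at starts were also seen outside the members: the 7600 other regions with a start had 90.0% ± 0.0372 in MEF, 91.3% ± 0.642 on day 9 and 88.6% ± 0.363 in ESC, and the 2175 of them bound in all 8 lists had 95.9%, 97.7% ± 0.325 and 96.1%.

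Taken region by region, 407 members (24.5%) had H3K27ac in both MEF lists, 84 (5.06%) in 1 and 1170 (70.4%) in neither. Over all merged regions 29.8% had it in both MEF lists, 3.65% in 1 and 66.5% in neither. On day 9, 1369 members (82.4%) were acetylated in both lists, beside 41.1% of all merged regions. In ESC, 242 (14.6%) were acetylated in both lists, beside 36.2% of all merged regions, and 1323 (79.7%) in neither, beside 56.9%. The combination of both day 9 lists and neither ESC list held for 1046 members (63.0%) and 12.1% of all merged regions. Adding absence in both MEF lists left 778 members (46.8%) and 8.51% of all merged regions. H3K27ac in all 8 lists of days 3 to 9 and in none of MEF and ESC was found at 65 members (3.91%) and at 0.249% of all merged regions. A total of 102 members (6.14%) had no H3K27ac peak in any of the 12 lists, beside 32.4% of all merged regions.

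Members were also divided by whether MEF had H3K27ac there, and all merged regions were divided the same way. Of the 407 acetylated in both MEF lists, 76.7% to 86.7% had a peak in the day 3 lists, 47.4% to 72.7% in the day 6 lists, 92.1% in each day 9 list and 33.2% and 34.4% in the ESC lists. For the 21536 merged regions acetylated in both MEF lists the shares were 67.1% to 78.7%, 48.2% to 60.3%, 77.3% and 78.8%, and 70.3% and 69.7%. Of the 1170 acetylated in neither, 38.4% to 55.0% had a peak in the day 3 lists, 12.9% to 43.1% in the day 6 lists, 84.1% and 84.9% in the day 9 lists, and 11.3% and 12.2% in the ESC lists. For the 48025 merged regions acetylated in neither they were 7.56% to 12.9%, 2.94% to 8.57%, 29.7% and 30.3%, and 26.9% and 25.5%. MEF-acetylated regions thus had the higher shares at each stage among all merged regions as among members. Within 2.5 kb of a gene start lay 22.4% of the first group of members and 4.54% of the second, beside 49.7% and 7.27% of the merged regions divided the same way. These are counts over regions within the same libraries and were not tested.

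The members are next described by the strength of the KLF4 peaks that chose them, with no test. Strength was the mean over the 6 lists of days 3, 6 and 9 of the percentile that the region's highest deposited score took in each list, and the members were cut by it into 4 groups of 415 or 416. From the weakest group to the strongest the mean H3K27ac share was 43.4% ± 7.13, 52.0% ± 8.19, 57.3% ± 7.14 and 71.0% ± 7.74 for day 3. For day 6 it was 25.3% ± 11.2, 29.2% ± 14.9, 31.7% ± 17.3 and 47.7% ± 18.2; the strongest group exceeded the weakest in each of the 3 libraries (41.4% and 21.2%, 33.5% and 16.8%, 68.2% and 38%), while 1 library had 18.3% in the second group and 17.8% in the third. The day 9 shares were 79.6% ± 1.36, 83.5% ± 0.511, 88.1% ± 0.170 and 94.6% ± 0.170. For ESC they were 21.6% ± 0.340, 20.4% ± 0.511, 14.3% ± 0.170 and 13.5% ± 1.36. In MEF the means lay between 24.8% and 28.9%. The 5665 regions bound in all 8 lists, cut the same way, had 68.7% ± 5.40, 69.3% ± 4.77, 71.1% ± 4.09 and 83.3% ± 3.77 for day 3, and 89.1% ± 1.40 in the weakest and 97.2% ± 0.150 in the strongest group for day 9. Higher shares in the strongest group were thus seen outside the members too. In ESC these regions had 86.5% ± 0.299, 85.9% ± 0.350, 85.5% ± 0.799 and 87.0% ± 0.799.

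**Figure D3:**
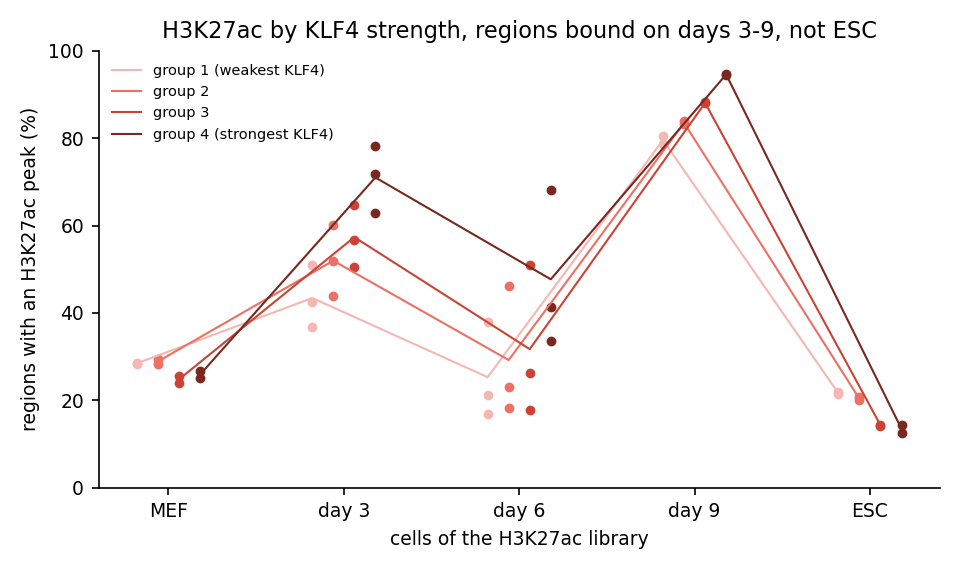
Share of members with an H3K27ac peak (percent) in each library, by stage, for 4 equal groups of members by KLF4 strength on days 3 to 9 (darker is stronger); points are libraries and lines join the stage means. The groups lie together in MEF and are spread on day 3, where the means run from 43.4% to 71.0%.

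KLF4 in ESC grown in 2i, which the rule did not use, was rare at the members. A KLF4 peak was present at 4.88% of members in the 2i library of batch EA-3702, the batch of 4 of the 6 day libraries, and at 6.74% in that of batch DG-3012. Moved by 1 Mb, the same lists hit 1.14% and 1.38%. The share was 80.4% and 82.4% for regions bound in all 8 lists, 50.1% and 56.5% for regions bound in both serum ESC lists alone, and 3.16% and 4.12% for regions bound on day 3 alone. Both 2i lists had a peak at 38 members (2.29%), beside 19.2% of all merged regions, 1 list at 117 and neither at 1506 (90.7%). Where 2i lists did have a peak in a member, its median deposited fold was 3.88 and 3.18, and its score stood at a median percentile of 35.2 and 35.3 in its list. With 1 library in each batch no test was made. The value rests on the longer serum ESC list: without the list of batch EA-2643 in the rule the members numbered 3038 and the mean 2i share was 23.8%, against 5.81% ± 1.32 with it; the share within 2.5 kb of a gene start was then 19.9%.

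**Figure D4:**
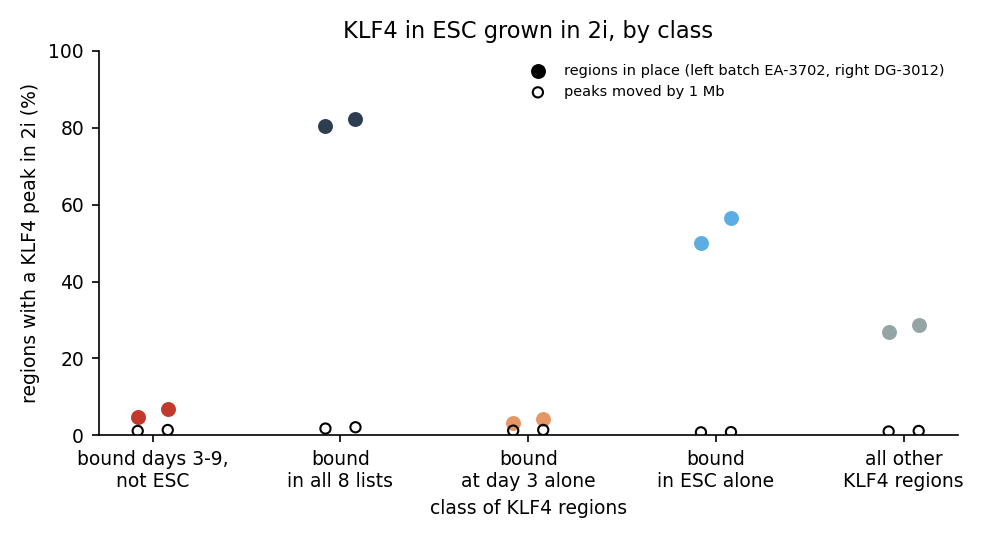
Share of regions with a KLF4 peak in ESC grown in 2i (percent), by class of KLF4 region; filled points are the 2 libraries (left batch EA-3702, right batch DG-3012) and open points the same lists with peaks moved by 1 Mb. Regions bound on days 3 to 9 and not in serum ESC are at 4.88% and 6.74%, far below the 80.4% and 82.4% of regions bound in all 8 lists.

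Of the 242 members acetylated in both ESC lists, 31.8% had a KLF4 peak in at least 1 of the 2i lists, as did 4.76% of the 1323 members acetylated in neither ESC list, while 64.4% of all merged regions had a peak in neither 2i list. The 242 lay within 2.5 kb of a gene start in 28.7% and the 1323 in 5.33%, beside 20.4% of all merged regions. These shares of all merged regions are not divided by ESC acetylation. The counts therefore do not show whether either contrast is particular to the members, and they were not tested.

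The KLF4 values that selected the members are given without a test. In batch EA-3702 the members had a median deposited fold of 7.31 (day 3), 4.96 (day 6) and 5.25 and 5.59 (day 9), and in batch DG-4040 of 4.11 (day 3) and 5.34 (day 6). The median score percentile in batch EA-3702 was 82.2 for day 3, 53.7 for day 6 and 62.2 over the day 9 lists, and 1099 members (66.2%) took their highest rank on day 3, 137 on day 6 and 425 on day 9. Of the same members 884 ranked higher on day 3 and 777 on day 6 in batch DG-4040. The median percentiles in that batch were 76.0 on day 3 and 76.6 on day 6. The lists differ in length (in batch EA-3702, 34404 peaks on day 3 and 22525 on day 6), so these ranks cannot show whether KLF4 binding changed between stages.

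By the mean percentile the highest member was the one at the Emp1 start (chr6:135362553-135363222). Its KLF4 fold was 16.7 and 12.4 on day 3, 28.6 and 14.8 on day 6, and 15.2 and 17.3 on day 9. It had H3K27ac in all 12 lists, with a fold of 51.5 and 44.9 in MEF, 7.84 to 16.6 on days 3 and 6, 17.0 and 15.1 on day 9, and 5.30 and 5.89 in ESC, and a KLF4 peak in 1 of the 2i lists. The second (chr17:78218352-78219009) lay inside Crim1, which codes for a membrane protein that binds BMP ligands, 18.1 kb from the gene's start. Its KLF4 fold was 17.9 and 13.8 on day 3, 23.4 and 18.9 on day 6, and 16.8 and 15.8 on day 9, and its H3K27ac was in both MEF lists and in neither ESC list.

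Others of the 10 highest, which were ranked on the KLF4 scores of the lists in the rule, are given as single regions. A member 15.7 kb from the start of Jund, an AP-1 subunit gene (chr8:70681268-70682006), had H3K27ac in every list but those of ESC, at a fold of 16.9 and 14.9 in MEF and 12.7 and 14.0 on day 9. Another, 50.6 kb from Fmod, which codes for the collagen-binding proteoglycan fibromodulin (chr1:133985593-133986689), had a fold of 3.26 and 3.89 in MEF, 15.3 to 26.1 on day 3, 17.1 and 19.2 on day 9, and no peak in ESC. Near Grhl1, an epithelial transcription factor gene (chr12:24535868-24536861, 35.4 kb away and inside Taf1b), neither MEF nor ESC had a peak and day 9 had a fold of 14.2 and 12.6. The region 311 kb from Tm4sf1 (chr3:56990162-56990844) had KLF4 folds of 28.4 and 12.9 on day 3 and 12.3 and 14.1 on day 9, but a peak of H3K27ac in only 1 of the 12 lists, a day 3 list.

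**Figure D5:**
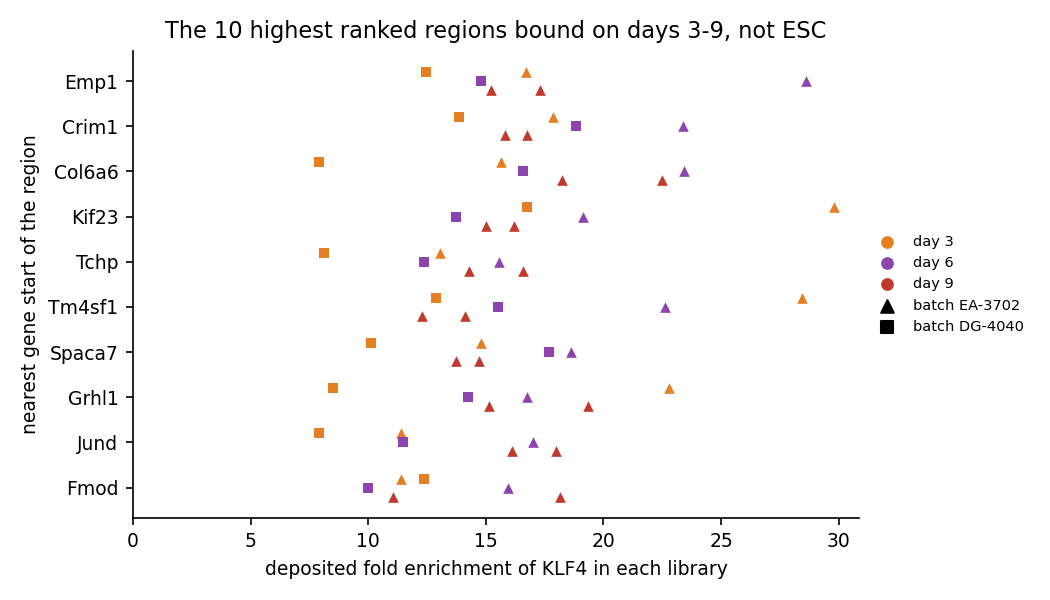
Deposited KLF4 fold enrichment in each of the 6 libraries of days 3, 6 and 9 for the 10 highest ranked members, named by the nearest gene start; colour gives the day and shape the batch. All values are at least 7.92, and the day 3 library of batch EA-3702 exceeds that of batch DG-4040 at every region but the one near Fmod.

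The 5 best ranked of the 65 members acetylated on days 3 to 9 alone were near Col6a6, Tchp, Spaca7, Atxn10 and Nrarp. The Col6a6 region (chr9:105892408-105893124), inside the neighbouring collagen VI gene Col6a5, had an H3K27ac fold of 4.35, 4.99 and 5.20 on day 3, 2.44, 4.58 and 5.86 on day 6 and 12.2 and 10.9 on day 9. The region at Nrarp, whose product is a feedback inhibitor of Notch signalling (chr2:25182310-25183378, 1.55 kb from the start), had 11.7 to 13.6 on day 3, 10.5 to 13.5 on day 6 and 37.4 and 41.1 on day 9. The Atxn10 region (chr15:85283899-85284736) lay inside Fbln1, which codes for the matrix protein fibulin-1. At each of these 5 regions the highest H3K27ac value was in a day 9 library, and no 2i list had a KLF4 peak.

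Members lay in or within 2.5 kb of 995 of 21631 protein-coding genes (4.60%), mostly 1 to a gene. Genes with 3 or more members numbered 27, and genes with a member had a median length of 79.9 kb, against 25.1 kb for genes with any merged KLF4 region and 17.3 kb for all genes. Foxp1, which codes for a forkhead repressor, held the most, with 8 members among 53 merged regions. They ranged from the member at one of its starts (chr6:99520803-99522976), acetylated in all 12 lists, to one without any H3K27ac peak (chr6:98927343-98927710). Its strongest member (chr6:99011689-99012536) had KLF4 folds of 19.7 and 7.18 on day 3, 9.69 and 9.83 on day 6 and 10.0 and 10.9 on day 9; H3K27ac was present in all 8 lists of days 3 to 9 and in none of MEF and ESC.

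The next genes by count were Rad51b, Bcas3 and Mast4 with 5 members each and Lama4, a laminin chain gene, with 4. Dnm3 also held 4. All 4 members in Lama4 had H3K27ac in both day 9 lists and in neither ESC list, and 3 of them had it in both MEF lists. The 4 in Dnm3 had it in both MEF lists, 1 of them in both day 9 lists and none in ESC. Within 10 kb, 110 members (6.62%) had another member and 184 (11.1%) had a region bound in all 8 lists.

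Genes of 12 pathway and lineage lists were examined, and 14 of their 183 genes (7.65%) held a member, beside 4.60% of all protein-coding genes and 6.51% of genes with any merged KLF4 region. In the TGF-beta list, a pathway that maintains the mesenchymal state, 4 of 17 genes held one: the ligand gene Tgfb2, the co-receptor gene Tgfbr3, and Ski and Smad6, whose products restrain SMAD signalling. Smad6 had 2 members, and both were acetylated in both MEF lists, with folds of 20.5 and 23.3 in MEF and 8.21 and 6.42 on day 9 at the stronger one (chr9:63980155-63980943). The member in Tgfb2 (chr1:186622764-186623193) had no H3K27ac peak in any list. That in Tgfbr3 (chr5:107209651-107210283) had H3K27ac in both day 9 lists and 1 ESC list alone. The Ski member (chr4:155164460-155164945) had it in both ESC lists, with folds of 9.18 and 6.08, in 1 list each of days 3, 6 and 9, and in no MEF list.

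Among mesenchymal factors 2 of 15 genes held a member, Prrx1 and Meis1, both homeobox genes. At the Prrx1 member (chr1:163308272-163308976, 4.67 kb from the start) the H3K27ac fold was 31.3 and 29.8 in MEF, 19.8, 17.0 and 9.12 on day 3, 4.28 in 1 of the day 6 lists and no list of ESC had a peak, while 1 of the day 9 lists had a weak one. KLF4 folds there were 12.1 and 3.85 on day 3, 3.43 and 5.62 on day 6 and 5.53 and 4.12 on day 9. The Meis1 member (chr11:18937564-18938103) had H3K27ac in 1 list each of MEF, day 3 and day 6, with folds of 3.37, 3.73 and 3.97. Both day 9 lists had a peak at the Meis1 member, with folds of 6.10 and 4.62, and no ESC list did. The contractile list had 2 of 15 genes, Actn4 and Tpm1, which code for an actin crosslinker and a tropomyosin. At the Tpm1 member (chr9:67022875-67023450) MEF had no H3K27ac peak, day 9 had folds of 15.4 and 16.1, and ESC had 3.37 and 4.07. The Actn4 member (chr7:28902395-28903207) had H3K27ac in every list but those of ESC, with folds of 9.55 and 7.43 in MEF and 8.73 and 6.81 on day 9. The matrix list had 1 of 14, Fbn1, the fibrillin-1 gene, with 3 members of which none was acetylated in ESC.

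In the list of epithelial junction and keratin genes 2 of 23 (8.70%) held a member: F11r, which codes for the tight junction protein JAM-A, and St14, which codes for the protease matriptase. The F11r member (chr1:171440608-171441005) was acetylated on day 9, with folds of 10.7 and 10.9, and on day 6 in 2 of 3 lists, with 2.79 and 3.78, and in no MEF, day 3 or ESC list. The St14 member was acetylated in both ESC lists, with folds of 15.6 and 13.0, and in both day 9 lists, with 3.53 and 4.43. It also had H3K27ac in 1 day 3 list, with a fold of 2.37, in no MEF or day 6 list, and a KLF4 peak in 1 of the 2i lists. Of 14 stratified epithelium genes 1 (7.14%) held a member, Ehf, an epithelial ETS factor gene, and of 15 WNT pathway genes 2 did, the co-receptor gene Lrp5 and Tcf7l2, a nuclear effector gene with 2 members.

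No member lay in or within 2.5 kb of the 22 pluripotency genes, the 12 AP-1 factor genes, the 12 extra-embryonic factor genes, the 11 p53 and senescence genes or the 13 FGF and ERK feedback genes. Beside 4.60% of all genes and 6.51% of genes with any merged region, a count of 0 in lists this short is near the background and shows nothing about these lists. A region bound in all 8 lists was held by 7 of the 22 pluripotency genes, 8 of the 12 AP-1 genes and 1 of the 12 extra-embryonic genes. The p53 and senescence list and the FGF and ERK feedback list had 5 such genes each. Over the genome 4399 of 21631 protein-coding genes held one, or 4399 of the 15287 with any merged region. These counts were not tested. With 1240 genes over the genome holding a member within 10 kb, the count for the 12 lists within that distance was 17.

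Promoter sequence was available for few members and was only described. Of the 70 promoter windows that members overlapped, 17.1% held GGGTGTGG or GGGCGTGG on either strand, against 10.3% of 21045 windows of all protein-coding genes, 17.4% of the 8970 windows that any merged KLF4 region overlapped, and 27.1% of the 2649 at regions bound in all 8 lists. The GC box GGGGCGGGG, which can overlap the KLF spellings, was in 21.4% of member windows and 38.4% of windows at regions bound in all 8 lists. It was in 15.5% of all promoter windows, 29.5% of those that any merged region overlapped and 6.12% of those at regions bound on day 3 alone. Windows of members had a mean GC content of 58.6%, against 66.3% at regions bound in all lists and 56.4% over all promoters. The octamer ATGCAAAT, a sequence bound by POU factors such as OCT4, was in 9 of the 70 windows (12.9%), against 1.68% of all promoter windows, 1.89% at regions bound in all lists and 3 of the 49 windows (6.12%) at regions bound on day 3 alone. These 9 windows belonged to 7 genes, with 3 at Egr2 and 1 each at Bcl2l12, H2ac6, Irf3, Pcyt1b, Pim2 and Sned1. The windows of Irf3 and Bcl2l12 are met by the same member. The AP-1 site TGACTCA or TGAGTCA was in 1 of the 70 windows (1.43%). It was in 4.69% of all promoter windows, 2.87% of windows that any merged region overlapped and 4 of the 49 (8.16%) at regions bound on day 3 alone. The remaining motifs searched on both strands were TEAD GGAATG (14.3% of member windows, 13.5% of all), CEBP TTGCNNCAA (4.29% and 1.81%), SOX ACAATGG (1.43% and 2.94%), GRHL AACCGGTT or AACCTGTT (1.43% and 0.974%), TFAP2 GCCNNNGGC (22.9% and 20.1%), and RUNX TGTGGTTT and ESRRB TCAAGGTCA, which no member window held. Windows that any merged region overlapped held TEAD in 10.8%, CEBP in 1.22%, SOX in 1.69%, GRHL in 0.903% and TFAP2 in 29.3%. They held RUNX in 0.825% and ESRRB in 0.234%. The windows of Gm36327 and Gm40367, which 2 of the 5 best ranked members with a gene start overlap, have the same letters, so that reads of these regions may not be told apart.

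The rule cuts through a graded set of regions. The weakest member by mean percentile, 14.0, lay 2.29 kb from the start of Gfra4 (chr2:131045375-131045866), with KLF4 folds of 3.76 and 2.40 on day 3, 3.09 and 2.78 on day 6 and 2.76 and 2.94 on day 9. The next lowest lay near Tcf12, at a percentile of 16.6, and near Pik3cg, at 20.4. Just outside, 1414 regions had a peak in 5 of the 6 lists and in neither ESC list. These near misses most often lacked the day 6 list of batch EA-3702 (415 regions) or the day 3 list of batch DG-4040 (348), and the highest of them stood at a mean percentile of 88.5 over its 5 lists. A further 1497 regions had all 6 lists and 1 ESC list, which was the longer list of batch EA-2643 for 1379 of them (92.1%), at a median deposited −log10 p of 5.89. The median over regions of the lowest −log10 p in the lists of days 3 to 9 was 4.59 for members and 3.56 for the regions with 5 lists. H3K27ac covered 73.6% of the regions with 5 lists in each day 9 library and 20.8% ± 1.00 in ESC, and 89.8% ± 1.04 and 61.6% ± 0.567 of those with 1 ESC list.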

How the data were processed

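H3K27ac (12 libraries) and KLF4 (10 libraries) had been profiled by ChIP-seq with single-end reads, per the labels' protocols; the 13 input libraries were not analysed here. The submitters' processing notes name cutadapt 1.8.1, Bowtie2 2.2.5, deepTools 2.3.6, MACS2 2.1.1 and the build mm10, with no settings. Each list deposited by the authors gives a peak its score, its fold enrichment as a ratio, and the −log10 of its p-value and of its q-value. The lists end near a −log10 p of 2.00 and carry no depth; weaker signal may lie where none has a peak.

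Peaks on chromosomes 1 to 19 and X were merged with Python 3.11.15, numpy 2.4.6 and pandas 2.3.3; an overlap was at least 1 bp. The measure tested was the percent of members with an H3K27ac peak minus that of a comparison class in the same library. Two-sided exact permutation tests over libraries were adjusted by Benjamini-Hochberg over 4 tests, within each alternative too, at a threshold of 0.05. With 2 or 3 libraries in a group the p-values measure the spread between these libraries. Where days were pooled, that spread also holds differences between stages and batches. Code was tested on simulated lists. Replicate lists shared at most 15 identical intervals.

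Genes, starts and sequences came from RefSeq tables of GRCm38.p6; chromosome 18 has no starts in these tables and was left out of distances and names. Genome sequence beyond promoter windows was not used here. The rule for named regions took the 10 members of highest mean score percentile (1 per nearest gene), the 5 genes with most members, up to 4 genes per list, the 5 best ranked acetylated on days 3 to 9 alone, the 5 best ranked holding a start, and the 3 lowest; regions near microRNA hairpins, the octamer genes and Dnm3 were named after their values were seen. The members, lists and tests were chosen with earlier results of these data known. Alternatives were peaks used, overlap, region width, comparison regions, distance, each library left out, permutation within batch and within replicate number; the restriction to distal regions and an exchange of replicate numbers at day 6 were chosen after seeing the data.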

Additional observations from a re-analysis of the deposited data

How the results depend on the processing

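No alternative turned the direction of a tested difference between stages. The p-values here are exact permutation p-values adjusted over the 4 tests within each setting, unless called unadjusted. The difference of days 3 to 9 from ESC, members minus other regions, was 30.5 to 51.8 points with single libraries left out, and that against regions bound in all lists 32.8 to 51.0. Both lost their call with a 50% overlap (29.9 and 28.2, adjusted exact p = 0.0889), with 200 bp about the midpoint (37.7 and 38.4, adjusted p = 0.0889), without the day 3 acetylation library of batch EA-3702 (48.1 and 47.6, adjusted p = 0.0556) and without either ESC acetylation library (47.8 and 49.9, and 47.7 and 49.3, adjusted p = 0.148, where 0.05 cannot be reached); with equal numbers of top peaks they were 37.9 and 30.7 and kept it. Against regions bound in all lists, the unadjusted exact p stayed at the smallest possible value with the overlap, the midpoint and the day 3 library settings (0.0222, 0.0222 and 0.0278). The difference from MEF was 25.3 to 33.9 points with single libraries left out. It lost its call with the 50% overlap (17.9), the midpoint window (20.7), without the day 3 acetylation library (30.2) or the day 3 or day 6 KLF4 list (27.2 and 29.2) of batch EA-3702, and without either MEF library (30.8 and 30.9). Permuting labels within batches, which leaves the differences of 48.8, 30.9 and 48.5 points as they are, gave an adjusted exact p = 0.0889 each and could not reach 0.05. A replicate block within batch DG-3458 gave 39.3 points against ESC and 21.3 against MEF (adjusted exact p = 0.222 and 0.296). It gave 41.15 for members minus regions bound in all lists (adjusted exact p = 0.222). All were the same with day 6 numbers exchanged. For each stage, the difference in peak presence between its replicate libraries was taken. These differences were correlated between stages, and the correlations lay between −0.00485 and 0.00850 over 6 stage pairs. Values this small gave no sign that same-numbered libraries share more than a number, and whether they do was not tested. Against regions of day 3 alone the difference was 7.05 to 26.96 points with single libraries left out, 24.5 with equal numbers of top peaks (adjusted exact p = 0.0357) and 1.28 with the block (adjusted exact p = 1).

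The number of members was 827 with the top 50% of each list (498 of them among the 1661), 1560 with equal numbers of top peaks (1221 among them), 1113 at q-values of at most 0.01 (764 among them), and 1779 to 3038 with 1 list left out. The 2i share was 4.22% at q-values of at most 0.01, 7.36% without the ESC list of batch EA-2697, and 4.88% to 23.8% over all lists left out. The share of members near a gene start was 11.9% with the top 50%, 10.7% with equal numbers of top peaks, 5.57% within 1 kb, 21.6% within 10 kb, and 8.50% to 19.9% with 1 list left out. The planned motif windows of other widths about each region were not run, since no genome sequence was used here. Depth is unknown, so an absent peak sets no limit on binding.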
